A study of Mus musculus with 10 samples.

Results

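Solute carriers are the membrane proteins that move amino acids, ions, metals, nucleosides and metabolites across the plasma membrane and the membranes of organelles. The genes described here are those whose symbol starts with Slc and a number and that face gene IDs counted in mouse cortex. They are linked to the counts by position, and whether the reads come from carrier transcripts was not tested. They were chosen by a mean count of 5 or more over the 10 libraries, after each counted gene ID had been assigned to the gene that faces it on the other strand, and Slc1a2, Slc2a1 and Slc32a1 were left out by the rule. This gave 36 genes, out of 75 Slc genes with an assigned ID and 379 Slc genes in the annotation (GENCODE M21, build GRCm38). The mean count that chose the members is their abundance, so the levels below are a description, and the genotype was not used in the choice.

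The tissue was a small piece of dissected cortex from mice on a C57BL/6 background. In 5 mice both copies of Stip1 were the dTPR1 allele, which lacks the TPR1 domain of STI1, a co-chaperone that links HSP70 with HSP90, and these mice were 541 to 630 days old. The other 5 mice were wild type and 442 to 663 days old. The labels name no driver that restricts the allele to a cell type, and give the tissue as a part of 1 hemisphere.

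In the brain, carriers set the concentrations that signalling depends on. Glutamate and glycine are cleared from the synaptic cleft by sodium-coupled carriers of the Slc1 and Slc6 families, and vesicular carriers load transmitter into synaptic vesicles. Cation-chloride cotransporters of the Slc12 family set cell volume and intracellular chloride, while the Slc25 family links the cytosol with the mitochondrial matrix.

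The deposited read counts lay on the strand opposite to genes, so a carrier is measured here through the ID that faces it and not through its own ID. Library totals ran from 667751 to 927242 counts, and 88.0% of counts were at IDs that could be assigned. Values are CPM, assigned counts per library brought to a common size with TMM factors, and 3 counts were worth 3.66 to 4.97 CPM in a library. No ID was assigned to Stip1, and its own ID held 0, 8, 0, 5 and 0 counts in the dTPR1 homozygous animals and 0, 4, 0, 8 and 0 in the wild-type animals, so the allele was not checked by these counts. Of the cell type markers, the neuronal genes Nefl and Nefm were tested and summed, with the third neuronal gene that had an ID, to 3354 to 5926 CPM in dTPR1 homozygous and 3299 to 4431 CPM in wild-type animals. The oligodendrocyte, endothelial and meningeal lists had 0 genes with an assigned ID, and the astrocyte list had 1, Aldh1l1, at 82.6 to 222 CPM in dTPR1 homozygous and 84.4 to 171 CPM in wild-type animals. The mural genes Tagln and Notch3 summed to 65.4 to 275 CPM in dTPR1 homozygous and 131 to 884 CPM in wild-type animals, and the choroid plexus gene Kcnj13 had 0 to 65.8 CPM in dTPR1 homozygous and 12.2 to 206 CPM in wild-type animals. Bcas1 and Gpr17, grouped here under oligodendrocyte precursors, summed to 1636 to 2617 CPM in dTPR1 homozygous and 1053 to 1895 CPM in wild-type animals. Which stage of the oligodendrocyte lineage their counts come from was not tested. No marker passed the genotype test, and the part of these cell types in the carriers' values was not tested. In bulk tissue, fewer cells of a type and less RNA per cell cannot be told apart.

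The stretches of carrier sequence that face counted IDs are short, and 3 of them are shown because they belong to abundant members and lie in coding sequence. They are read 5′ to 3′ on the carrier's own strand, from GENCODE M21 transcripts on build GRCm38. Capitals mark coding bases that face exons of the counted ID, and lower case marks up to 15 neighbouring coding bases of the same transcript. The Slc6a9 stretch faces Ccdc24 at chr4:117868048-117868239 on the plus strand, and reaches the end of the coding sequence. The Slc25a23 stretch faces Gm17168 at chr17:57045522-57045663 on the minus strand. The Slc1a1 stretch faces 4430402I18Rik at chr19:28911654-28911879 on the plus strand.
Slc6a9: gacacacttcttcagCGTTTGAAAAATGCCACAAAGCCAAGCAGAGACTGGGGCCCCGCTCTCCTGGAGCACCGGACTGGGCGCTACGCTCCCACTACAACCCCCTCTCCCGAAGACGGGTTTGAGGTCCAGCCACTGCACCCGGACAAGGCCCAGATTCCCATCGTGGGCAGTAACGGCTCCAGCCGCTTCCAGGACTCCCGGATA
Slc25a23: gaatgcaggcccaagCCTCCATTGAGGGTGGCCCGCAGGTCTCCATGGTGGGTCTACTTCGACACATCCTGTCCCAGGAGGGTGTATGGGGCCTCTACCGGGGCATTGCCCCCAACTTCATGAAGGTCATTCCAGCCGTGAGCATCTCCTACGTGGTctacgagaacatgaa
Slc1a1: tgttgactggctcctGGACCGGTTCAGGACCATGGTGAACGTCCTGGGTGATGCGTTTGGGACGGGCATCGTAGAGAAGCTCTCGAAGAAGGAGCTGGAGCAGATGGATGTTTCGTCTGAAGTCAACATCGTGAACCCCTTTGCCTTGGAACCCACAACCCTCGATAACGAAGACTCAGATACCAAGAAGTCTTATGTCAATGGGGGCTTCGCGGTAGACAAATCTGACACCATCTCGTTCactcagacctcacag

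The 36 members were counted at 42 IDs, and 31 of them at 1 ID only. The main ID crossed the carrier gene's end in 16 members, crossed its start in 11 and lay inside it in 9. In 14 members the main ID was itself a protein-coding gene, and in 22 it was an antisense RNA, a pseudogene or another noncoding class. The IDs faced 32 to 2631 exon bases of a member (median 423), or 1.51% to 38.6% of its exon sequence (median 9.16%). A coding base was faced in 27 members and none in 9. Because an ID's counts are not split by base, reads outside the facing stretch are included, and the main ID faced exons of its member over a median of 25.0% of its own exon bases.

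**Figure D1:**
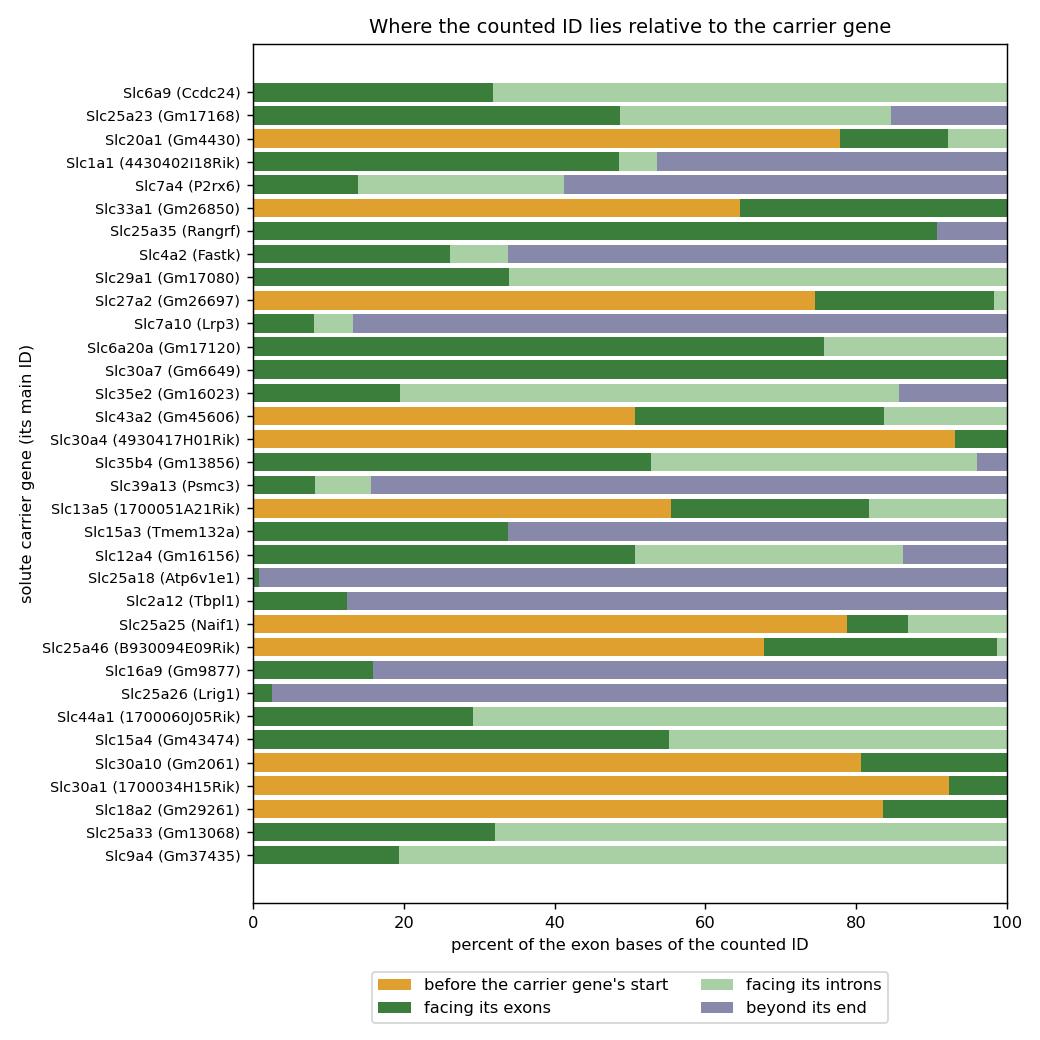
Share of the exon bases of each member's main ID (bars, percent, 0 to 100) that lay before the carrier gene's start, faced its exons, faced its introns or lay beyond its end, with members ordered by mean count at that ID. The ID of Slc6a9 lay wholly within the gene, whereas most bases of the ID of Slc20a1 lay before the start and most of those of Slc25a18 beyond the end; 34 of the 36 members are drawn.

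The geometry differed among the most counted members. Ccdc24, which held 99.7% of the Slc6a9 counts, faced its exons with 1429 of 4491 exon bases and its introns with the other 3062. Gm4430 had 1512 of its 1943 exon bases before the start of Slc20a1, and 280 facing its exons. Atp6v1e1 faced Slc25a18 with 32 of 4110 exon bases, the smallest overlap among the members. For such members most counted bases lie outside the carrier's exons, and where on the ID the reads fell was not tested.

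Members whose ID crosses the start have counted bases in front of the gene, so their promoters were read from RefSeq (GRCm38.p6), which held 10 of these 11. The promoter of Slc20a1 is shown because it heads the most counted of them and the counted ID runs through it. These are the 250 bases before the RefSeq start, chr2:129198523-129198772 on the plus strand, and capitals mark the GC box GGGCGG, searched on both strands (CCGCCC on the other), which occurred at 2 places.
Slc20a1 promoter: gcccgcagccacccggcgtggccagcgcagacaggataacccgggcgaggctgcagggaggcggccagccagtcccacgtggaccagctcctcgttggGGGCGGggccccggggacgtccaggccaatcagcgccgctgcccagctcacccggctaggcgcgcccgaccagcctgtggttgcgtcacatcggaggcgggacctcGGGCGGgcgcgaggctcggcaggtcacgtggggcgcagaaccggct
GC boxes were found in 8 of the 10 promoters, against 32.7% of the 32851 promoters in the table. The letters TATAAA, also searched on both strands, were found in 0 of the 10, against 12.4% of all promoters. The GC content of the 10 ran from 52.4% to 82.8%, and the median of all promoters was 52.4%. The 10 were chosen by counts at an ID crossing the gene start, while the 32851 were not limited by counts. Promoters of other genes chosen in the same way were not examined, so these shares are not shown to be particular to carriers.

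The members held 45588 counts in all, unevenly spread. Slc6a9 held 48.8% of them and the 5 most counted members 77.4%. These 5 had a mean count of 100 or more, 24 members had 10 to 100 and 7 had 5 to 10. Summed over the members, the level was 5648 to 9126 CPM in dTPR1 homozygous animals (6785 ± 1386, SD, n = 5) and 5338 to 7330 CPM in wild-type animals (6418 ± 848, SD, n = 5). Without Slc6a9 the sum was 3109 to 3551 CPM in dTPR1 homozygous animals (3323 ± 198) and 3298 to 3677 CPM in wild-type animals (3412 ± 158). The groups overlapped in both sums, and leaving out Slc6a9 brought the animals closer together.

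Levels of different genes are compared per kilobase of facing exon bases. On that scale Slc25a23 was highest at 4627 CPM per kilobase, with Slc20a1 at 1940.0 and Slc6a9 at 1628. The Slc6a9 length sums 3 IDs, among them Gm17114 (511 facing bases, mean count 4.2) and B4galt2 (46 facing bases, mean count 2.2). Bases with few counts thus lower the Slc6a9 value, and its order beside Slc20a1 is not settled. Slc25a18 had 642 CPM per kilobase over its 32 bases. Slc9a4 was lowest at 7.59 CPM per kilobase. The order depended on the length used. Per kilobase of all exon bases of the IDs, Slc25a23 had 2253, Slc6a9 322 and Slc20a1 279.6 CPM per kilobase. There the Slc6a9 length includes the 5031 exon bases of B4galt2, which lower its value in the same way.

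**Figure D2:**
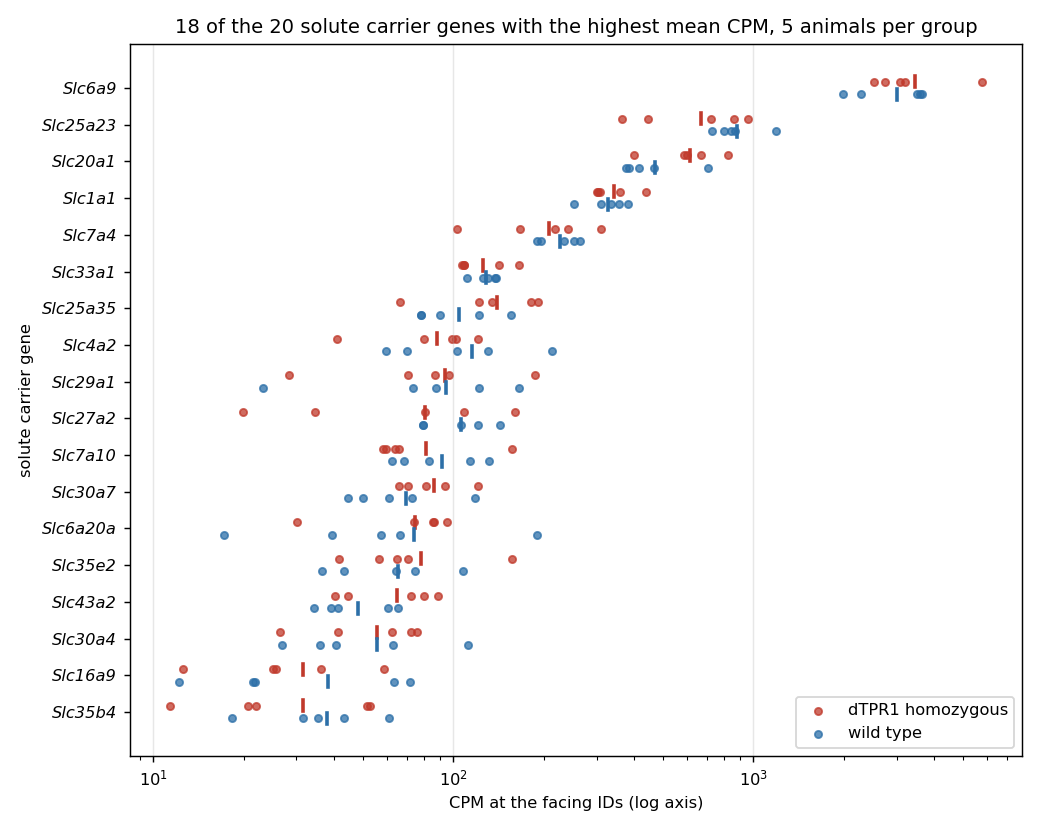
CPM at the facing IDs (log axis) for 18 of the 20 members of highest mean CPM, 1 point per animal, dTPR1 homozygous above wild type, with vertical bars at the group means (n = 5 each). The points of the genotypes overlap in every gene drawn, and dTPR1 homozygous animal 2 stands apart from its group in Slc6a9.

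No member differed between the genotypes by the test across all genes. edgeR's quasi-likelihood test was run on 2019 genes with Benjamini-Hochberg adjustment over all of them, and 29 of the 36 members passed the filter on low counts. Of the members tested, 0 had an adjusted p under 0.05, as did 0 of all genes tested (0%), and no adjusted p was below 0.999. Unadjusted, 0 members had a p under 0.05, against 2.82% of all genes tested. DESeq2 called 0 members with 0 at an unadjusted p under 0.05, and limma-voom called 0 with 1, Slc20a1. The genotypes' CPM ranges overlapped in all 36 members, while they did not overlap in 0.347% of the genes tested. The p-values measure the spread between the 5 animals of each group.

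The log2 fold changes, dTPR1 homozygous over wild type, were positive in 12 tested members and negative in 17, against 50.2% positive among all genes tested. Their median was -0.03, against 0.0017 over all genes, and they ran from -0.75 (Slc25a46) to 0.64 (Slc25a18). A log2 fold change of more than 0.5 in either direction was seen in 5 members (17.2%), against 21.5% of all genes tested. The standard error (SE) was 0.18 to 0.84 with a median of 0.44, against 0.42 over all genes. The members' estimates were therefore about as wide as those of other genes, and most fold changes were smaller than their own SE.

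**Figure D3:**
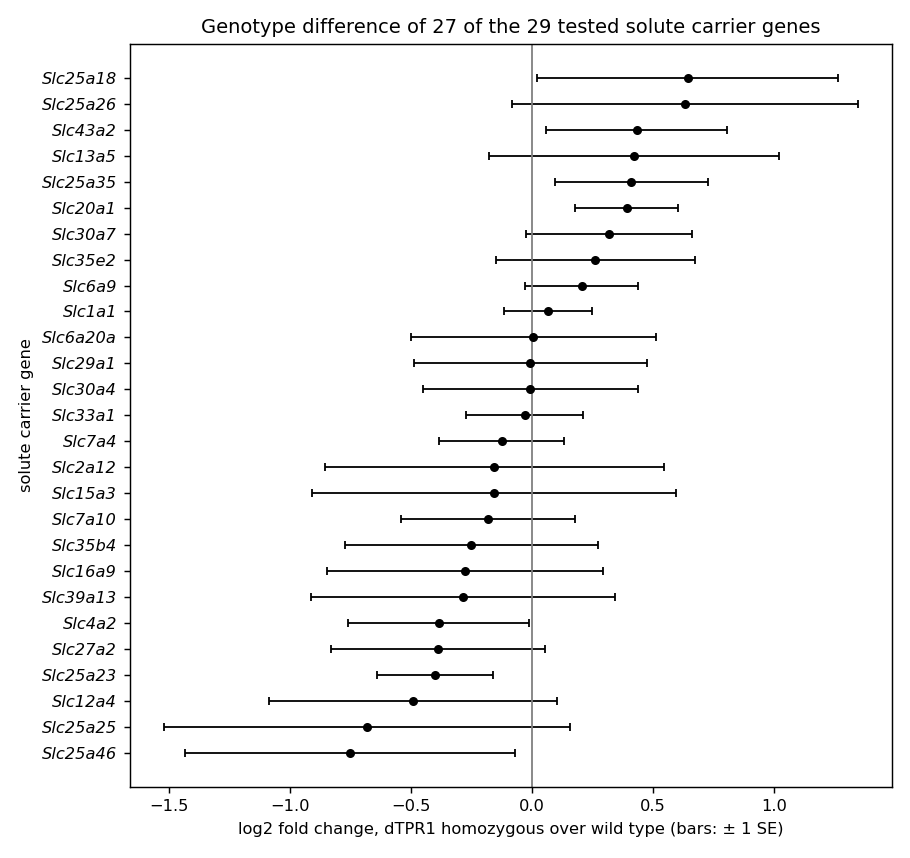
Log2 fold change of 27 of the 29 tested members, dTPR1 homozygous over wild type (points, bars ± 1 SE, edgeR), ordered from highest to lowest. The estimates run from -0.75 to 0.64 on both sides of 0, and the widest bars belong to members of low count.

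The transmitter carrier with the most counts was Slc6a9, which encodes the glycine transporter GlyT1 of glia and some glutamatergic neurons, the carrier that sets glycine around NMDA receptors. Slc6a9 stood at 2517, 5770, 2742, 3198 and 3085 CPM in dTPR1 homozygous animals 1 to 5, against 3512, 3596, 3654, 1988 and 2278 CPM in wild-type animals 1 to 5. Animal 2 of the dTPR1 homozygous group was far above all others, and the other 4 lay within the wild-type range, where animals 4 and 5 were low. The mean was 3462 ± 1318 CPM in dTPR1 homozygous and 3005 ± 804 CPM in wild-type animals (SD, n = 5 each), with a log2 fold change of 0.20 ± 0.24 (SE; edgeR adjusted p = 0.999). Without dTPR1 homozygous animal 2 it was -0.05.

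Slc1a1 encodes the neuronal glutamate and cysteine transporter EAAC1. It stood at 301, 308, 303, 437 and 360 CPM in dTPR1 homozygous animals, against 252, 310.0, 356, 336 and 381 CPM in wild-type animals. It was the steadiest of the tested members, with an SE of 0.18 on a log2 fold change of 0.06, and the groups overlapped over most of their range. Without dTPR1 homozygous animal 4 the log2 fold change was -0.04, and without wild-type animal 5 it was 0.13. Slc1a2, the main astrocyte glutamate transporter and no member, had 246, 69.9, 239, 146 and 184 CPM in dTPR1 homozygous and 68.6, 48.5, 14.9, 108 and 181 CPM in wild-type animals, a log2 fold change of 1.07 ± 0.51 (SE; edgeR adjusted p = 0.999).

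Slc6a20a encodes a carrier of proline and other imino acids and has a close paralog, Slc6a20b, whose facing ID had a mean count of 0; whether reads are shared between the copies was not tested. It stood at 73.9, 30.2, 85.6, 95.5 and 86.5 CPM in dTPR1 homozygous animals, against 17.1, 190.0, 39.4, 66.2 and 57.4 CPM in wild-type animals. Wild-type animal 2 was highest and wild-type animal 1 lowest of all 10. The log2 fold change of 0.00 ± 0.51 (SE) became 0.72 without wild-type animal 2 and -0.24 without wild-type animal 1. Slc18a2, which encodes the vesicular monoamine transporter VMAT2, was not tested, and had 0, 40, 0, 17 and 0 counts in dTPR1 homozygous animals and 0, 2, 0, 4 and 0 in wild-type animals. Its counts were all in animals 2 and 4 of either group. The counted ID, Gm29261, had 567 of its 678 exon bases before the start of Slc18a2 and 111 facing its exons. Of the 3 transmitter carriers tested, 3 had a positive log2 fold change, though that of Slc6a20a was just below 0 with DESeq2 or upper-quartile scaling, and 0 passed the test.

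The mitochondrial carriers formed the largest group, with 8 members, of which 7 were tested. Slc25a23, a calcium-regulated carrier that exchanges ATP-magnesium for phosphate, was the most counted of them. It stood at 444, 723, 364, 859 and 962 CPM in dTPR1 homozygous animals, against 842, 798, 1188, 725 and 869 CPM in wild-type animals. Animals 1, 2 and 3 of the dTPR1 homozygous group lay below every wild-type animal, animal 2 by a narrow margin, and wild-type animal 3 was highest. The mean was 670 ± 259 CPM in dTPR1 homozygous and 884 ± 178 CPM in wild-type animals (SD, n = 5 each), and the log2 fold change was -0.40 ± 0.24 (SE; edgeR adjusted p = 0.999). It became -0.24 without dTPR1 homozygous animal 3.

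Slc25a35, a carrier whose substrate is not settled, stood at 182, 135, 122, 66.6 and 192 CPM in dTPR1 homozygous animals, against 90.4, 121, 156, 77.8 and 78.1 CPM in wild-type animals. Animals 1 and 5 of the dTPR1 homozygous group were above all wild-type animals and animal 4 was below them. Its log2 fold change was 0.41 ± 0.32 (SE; edgeR adjusted p = 0.999). It was 0.81 with the striatal level described below in the model and 0.76 without wild-type animals 2 and 3. Its ID, Rangrf, faced it over 1151 exon bases.

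The mitochondrial members of low count were counted at 5.5 to 13.9 reads per library, and the SE of those tested was 0.62 to 0.84. Slc25a18, a glutamate carrier of the inner membrane, stood at 18.5, 39.7, 13.2, 16.3 and 37.7 CPM in dTPR1 homozygous animals, against 26.5, 12.1, 8.15, 14.9 and 18.3 CPM in wild-type animals, a log2 fold change of 0.64 ± 0.62 that was 0.42 without dTPR1 homozygous animal 2. Slc25a46, an outer-membrane protein of mitochondrial dynamics, stood at 17.1, 12.7, 14.8, 16.3 and 4.71 CPM in dTPR1 homozygous animals, against 10.9, 24.3, 13.6, 13.2 and 48.8 CPM in wild-type animals, a log2 fold change of -0.75 ± 0.68. In Slc25a18 the highest values were those of dTPR1 homozygous animals 2 and 5, and in Slc25a46 that of wild-type animal 5, without which the gene did not pass the filter and no fold change was fitted. The other 4 wild-type animals overlapped the dTPR1 homozygous range of Slc25a46 in all but animal 2. Slc25a26, the carrier of S-adenosylmethionine, had 0.63 ± 0.71, and 0.33 without wild-type animal 3. Slc25a25, another carrier of ATP-magnesium, had -0.68 ± 0.84. Of the 7 tested, 4 were positive, 3 were negative and 0 passed the test.

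Of the ion and bicarbonate carriers, Slc20a1 was the most counted. It encodes the sodium-phosphate cotransporter PiT1, and stood at 587, 400.2, 821, 671 and 602 CPM in dTPR1 homozygous animals, against 385, 377, 417, 705 and 466 CPM in wild-type animals. In the dTPR1 homozygous group 4 of 5 animals were above the wild-type mean, and wild-type animal 4 lay among them. The mean was 616 ± 152 CPM in dTPR1 homozygous and 470.2 ± 136 CPM in wild-type animals (SD, n = 5 each), and the log2 fold change was 0.39 ± 0.21 (SE; edgeR adjusted p = 0.999). Without wild-type animal 4 it was 0.59 (edgeR adjusted p = 0.994).

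Wild-type animal 3, which had the most Slc25a23, and wild-type animal 2 had the highest striatal level, the mean log2 CPM of Rarb, Penk, Ppp1r1b and Syndig1l, genes known for high expression in the striatum beneath the cortex. That level was 7.56, 8.57, 7.64, 6.25 and 8.72 in dTPR1 homozygous animals 1 to 5, against 7.70, 9.85, 10.4, 9.20 and 7.49 in wild-type animals 1 to 5. The summed CPM of the 4 markers with an assigned ID, of 10 listed, ran from 451 to 2604 in dTPR1 homozygous and from 890 to 6361 in wild-type animals. With the striatal level in the model, the log2 fold change of Slc25a23 was -0.31 (edgeR adjusted p = 0.995) and that of Slc20a1 0.31 (edgeR adjusted p = 0.995). Left without wild-type animals 2 and 3, the fits gave -0.27 for Slc25a23 and 0.25 for Slc20a1 (edgeR adjusted p = 0.996 for both). Other members grew in these fits: Slc25a35 had 0.81 with the striatal level and 0.76 without the 2 animals, Slc43a2 had 0.82 and 0.76, and Slc30a7 had 0.62 and 0.50. On the negative side Slc4a2 had -0.75 with the striatal level and -0.76 without the 2 animals, and Slc25a46 had -1.18 and -0.90. Of the 23 named members tested, 12 were larger in size by over 1.5 times with the striatal level in the model and 4 smaller by as much, and 0 had an adjusted p under 0.05. Size ignores sign, and the 12 include members near 0 in the main fit, where a ratio says little. Slc6a20a went from 0.0044 to 0.318, Slc29a1 from -0.0068 to 0.1618, Slc30a4 from -0.0084 to -0.1189 and Slc33a1 from -0.0305 to 0.0569. The share over all genes tested is not given here. The part of striatal tissue in these differences was not tested further.

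**Figure D4:**
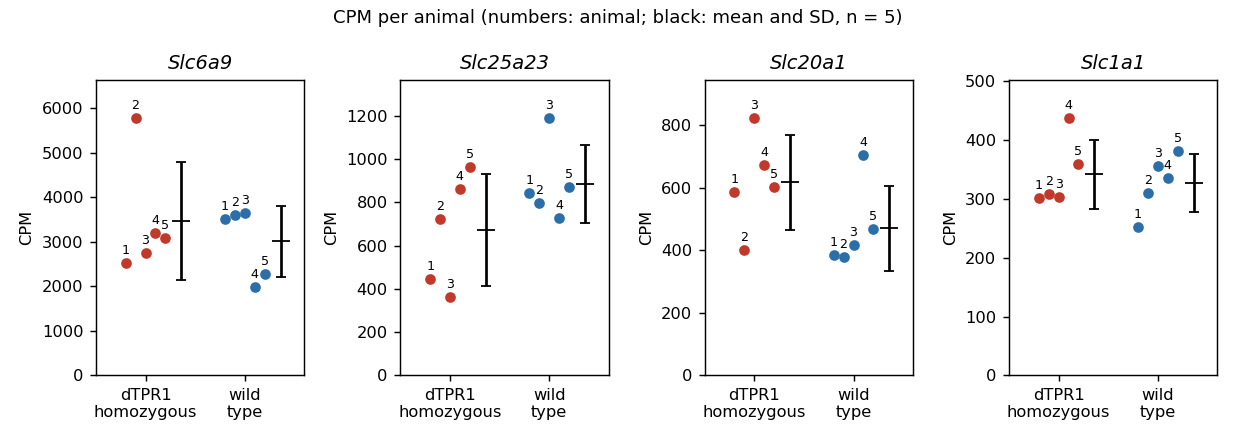
CPM per animal (y axis, from 0) of Slc6a9, Slc25a23, Slc20a1 and Slc1a1, with dTPR1 homozygous left and wild type right; small numbers name the animal and black marks give the mean and SD (n = 5). Animal 2 of the dTPR1 homozygous group stands apart in Slc6a9, wild-type animal 4 in Slc20a1 and wild-type animal 3 is highest in Slc25a23.

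Slc4a2, the chloride-bicarbonate exchanger AE2, stood at 79.6, 121, 98.8, 102 and 40.9 CPM in dTPR1 homozygous animals, against 131, 70.1, 59.8, 103 and 214 CPM in wild-type animals. Animal 5 was lowest of the dTPR1 homozygous group and highest of the wild-type group. The log2 fold change of -0.39 ± 0.37 (SE) was -0.04 without wild-type animal 5 and -0.20 without dTPR1 homozygous animal 5. Slc12a4, the potassium-chloride cotransporter KCC1, had -0.49 ± 0.59 at a mean count of 16.8. Slc9a4, a sodium-proton exchanger, was not tested and had 0, 0, 0, 15 and 24 counts in dTPR1 homozygous animals and 0, 0, 0, 0 and 14 in wild-type animals. Of the 4 tested ion and bicarbonate carriers, 1 was positive, 3 were negative and 0 passed the test.

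Among the amino acid and peptide carriers, Slc7a4, a relative of the cationic amino acid transporters, stood at 310.0, 103, 219, 241 and 167 CPM in dTPR1 homozygous animals, against 196, 252, 190.2, 265 and 233 CPM in wild-type animals. The dTPR1 homozygous group held both the highest and the lowest animal. Its log2 fold change was -0.13 ± 0.26 (SE), 0.05 without dTPR1 homozygous animal 2 and -0.31 without dTPR1 homozygous animal 1.

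Slc7a10 encodes Asc-1, a carrier of glycine and D-serine, both of which bind the NMDA receptor. It stood at 59.7, 157, 65.8, 64.1 and 58.2 CPM in dTPR1 homozygous animals, against 114, 68.7, 132, 82.8 and 62.3 CPM in wild-type animals. As for Slc6a9, dTPR1 homozygous animal 2 was above the other 4 of its group, which lay close together. The log2 fold change of -0.18 ± 0.36 (SE) was -0.56 without that animal and -0.01 without wild-type animal 3. Slc43a2, the carrier LAT4 of large neutral amino acids, had a log2 fold change of 0.43 ± 0.37 (edgeR adjusted p = 0.999), with 65.1 ± 21.7 CPM in dTPR1 homozygous and 48.1 ± 13.9 CPM in wild-type animals (SD, n = 5 each).

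The lysosomal peptide and histidine carriers Slc15a3 and Slc15a4 were near the floor, with mean counts of 16.9 and 8.0, and Slc15a4 was not tested. Slc15a3 had -0.16 ± 0.75 (SE). Of the 4 tested amino acid and peptide carriers, 1 was positive, 3 were negative and 0 passed the test.

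The metal carrier with the most counts was Slc30a7, the Golgi zinc transporter ZnT7, which was counted at a pair of processed pseudogenes that lie opposite its exons and is uncertain for that reason. It stood at 93.8, 81.0, 65.8, 70.4 and 121 CPM in dTPR1 homozygous animals, against 49.9, 44.5, 118, 72.8 and 61.0 CPM in wild-type animals. Wild-type animals 1, 2 and 5 lay below all dTPR1 homozygous animals, and wild-type animals 3 and 4 among them. Its log2 fold change was 0.32 ± 0.34 (SE), 0.59 without wild-type animal 3 and 0.17 without dTPR1 homozygous animal 5.

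Slc30a4, the vesicular zinc transporter ZnT4, had 55.6 ± 21.1 CPM in dTPR1 homozygous and 55.8 ± 34.3 CPM in wild-type animals (SD, n = 5 each). Its log2 fold change of -0.01 ± 0.44 (SE) was 0.42 without wild-type animal 5 and -0.19 without wild-type animal 2. Slc39a13, the zinc transporter ZIP13, had -0.29 ± 0.63. The manganese exporter Slc30a10 and the zinc exporter Slc30a1 were not tested, with mean counts of 7.7 and 6.6 and 3 libraries each at 0. Of the 3 tested metal carriers, 1 was positive, 2 were negative and 0 passed the test.

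Slc29a1 had the most counts of the nucleoside and nucleotide sugar carriers and encodes ENT1, which carries adenosine across the plasma membrane. It stood at 96.7, 187, 70.8, 86.7 and 28.3 CPM in dTPR1 homozygous animals, against 122, 87.6, 166, 23.2 and 73.2 CPM in wild-type animals. The groups covered the same range, each with 1 animal far below the rest, and the log2 fold change was -0.01 ± 0.48 (SE). Leaving out single animals gave -0.41 without dTPR1 homozygous animal 2 and 0.30 without wild-type animal 3.

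Slc35b4 carries nucleotide sugars in the Golgi and endoplasmic reticulum, and had a log2 fold change of -0.25 ± 0.52. Leaving out 1 animal moved it between -0.0045 (wild-type animal 1) and -0.50 (dTPR1 homozygous animal 3 or 4). Slc35e2, whose substrate is not settled, stood at 156, 65.1, 70.8, 41.5 and 56.6 CPM in dTPR1 homozygous animals, against 108, 43.1, 74.7, 64.6 and 36.6 CPM in wild-type animals. Animal 1 was highest in both groups. The log2 fold change of 0.26 ± 0.41 (SE) was -0.15 without dTPR1 homozygous animal 1 and 0.52 without wild-type animal 1. Of the 3 tested carriers of this group, 1 was positive and 2 were negative, of which Slc29a1 was at 0.01 once mitochondrial genes were left out of the scaling, and 0 passed the test.

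In the organic ion, vitamin and lipid group, Slc33a1 brings acetyl-CoA into the endoplasmic reticulum. It was among the most even members, at 108, 165, 142, 108 and 107 CPM in dTPR1 homozygous animals, against 137, 125, 138, 131 and 111 CPM in wild-type animals. Only dTPR1 homozygous animals 2 and 3 exceeded the wild-type range, 3 lay just below it, and the log2 fold change was -0.03 ± 0.24 (SE), -0.14 without dTPR1 homozygous animal 2 and 0.03 without dTPR1 homozygous animal 5. Slc27a2, which activates and imports very long chain fatty acids, stood at 19.9, 160, 80.7, 108 and 34.6 CPM in dTPR1 homozygous animals, against 143, 79.5, 121, 106 and 79.3 CPM in wild-type animals. Animals 1 and 5 of the dTPR1 homozygous group were below all wild-type animals and animal 2 was above them, and the log2 fold change was -0.39 ± 0.44 (SE). Leaving out dTPR1 homozygous animals 1, 2 and 5 in turn gave -0.14, -0.79 and -0.19, and leaving out wild-type animal 1 gave -0.24. The choline carrier Slc44a1 had a mean count of 9.6 and was not tested. Of the 2 tested, 0 were positive and 0 passed the test.

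The sugar and monocarboxylate carriers were all of low count. Slc16a9, a member of the monocarboxylate transporter family, was counted partly at a pseudogene beyond its end and stood at 25.6, 58.8, 36.2, 12.6 and 25.1 CPM in dTPR1 homozygous animals, against 21.8, 71.4, 12.2, 21.5 and 63.5 CPM in wild-type animals. Its values were scattered alike in both groups, with a log2 fold change of -0.28 ± 0.57 (SE) that was 0.08 without wild-type animal 2 and -0.62 without dTPR1 homozygous animal 2. Slc13a5, the citrate carrier NaCT, had 0.42 ± 0.60, and the glucose carrier Slc2a12 had -0.16 ± 0.70. Of the 3 tested, 1 was positive, 2 were negative and 0 passed the test.

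Animals differed in how often they led their group. Among the 29 tested members, dTPR1 homozygous animal 2 was the highest of its group in 12 (41.4%), while among all genes tested it was highest in 23.1%. In the wild-type group animal 3 was highest in 9 members, against 23.3% of all genes tested. The members led by dTPR1 homozygous animal 2 included Slc6a9, Slc7a10, Slc29a1 and Slc27a2, and it was lowest of its group in 4, among them Slc20a1 and Slc7a4.

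At the low end, the 7 members that were not tested had mean counts of 5.3 to 9.6, and the lowest tested member had 12.2. Of their 70 library values 26 were 0 (37.1%), against 22.4% of the values of all 594 genes with a mean count of 5 to 10. The members just inside the rule were Slc9a4 at 5.3, Slc25a33 at 5.5 and Slc18a2 at 6.3 mean counts, and those just outside were Slc26a10 at 4.5 and Slc5a6 and Slc16a7 at 4.8 each. Slc25a33, a mitochondrial carrier of pyrimidine nucleotides, had 0, 8, 11, 0 and 13 counts in dTPR1 homozygous animals and 0, 0, 8, 0 and 15 in wild-type animals. The main fit did not test these 7 members, and the size of difference detectable at such counts was not measured. Carriers that faced no counted ID are not covered, among them the vesicular glutamate carrier Slc17a7 and the neuronal chloride extruder Slc12a5.

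The IDs that carry the members' own names were mostly near 0, and in 14 members the mean count there was under 1. Summed over the members, the own IDs held a mean count of 1840.0 and the facing IDs 4559. In 6 members the own ID was the higher one. Slc15a3 had 1060.0 mean counts at its own ID against 16.9 at Tmem132a, and Slc7a10 had 290.1 against 59.1 at Lrp3. By the assignment, counts at an own ID belong to the gene that faces it, so they were not added to the member.

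**Figure D5:**
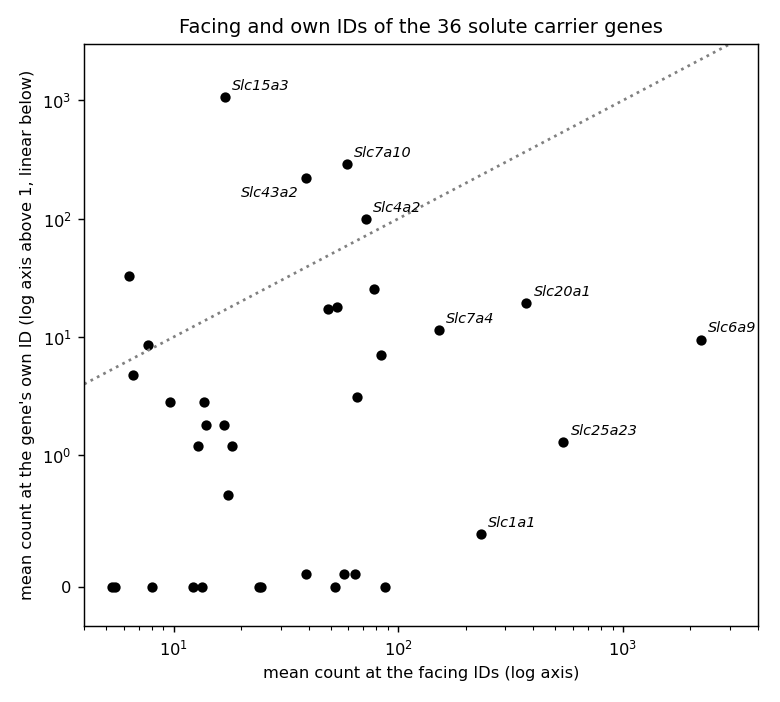
Mean count over 10 libraries at each member's own ID (y axis, log above 1 and linear below) against the mean count at the IDs facing it (x axis, log), 1 point per gene, with a dotted line of equality. Most members lie below the line, and 14 members have an own-ID mean under 1. The 6 above the line are Slc15a3, Slc7a10, Slc43a2, Slc4a2, Slc18a2 (32.5 against 6.3) and Slc30a10 (8.6 against 7.7).

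Other transport genes were taken from lists by symbol. Of 27 genes of the vacuolar proton pump, which energises vesicle loading, 2 were tested. Atp6v0a2 had 146 ± 36.8 CPM in dTPR1 homozygous and 227 ± 45.1 CPM in wild-type animals, a log2 fold change of -0.64 ± 0.23 (SE; edgeR adjusted p = 0.999), and Atp6v0b had 0.01 ± 0.30.

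The calcium, copper and lipid pumps had 5 tested genes of 31, with 1 positive and 4 negative, and the most counts at the phospholipid flippases Atp8a2 (0.07 ± 0.18) and Atp8a1 (-0.30 ± 0.17). The ABC transporters had 2 tested of 50, with Abca3 at 0.08 ± 0.19 and Abcb9 at -0.31 ± 0.33. The carriers of the major facilitator superfamily outside the Slc names had 6 tested of 29. All 6 were positive with a median log2 fold change of 0.30, against 50.2% positive among all genes tested. Mfsd4a had the most counts, at 1491 ± 443 CPM in dTPR1 homozygous and 1417 ± 267 CPM in wild-type animals. Its log2 fold change was 0.07 ± 0.21, that of Mfsd12 0.42 ± 0.37 and that of Spns2 0.69 ± 0.35 (SE; edgeR adjusted p = 0.999 for each). The monocarboxylate and pyruvate partners had 3 tested of 5, with Nptn at -0.30 ± 0.41, Emb at 0.08 ± 0.73 and Mpc1 at 0.97 ± 0.71, and the organic anion carriers named Slco had 1 of 15, Slco2b1 at -0.19 ± 0.28. In each of these lists 0 genes passed the test.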

How the data were processed

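RNA-seq read counts of cortex from 5 dTPR1 homozygous and 5 wild-type mice were used. The values are raw counts deposited by the authors, 1 whole number per gene ID and library for 53090 IDs, with 0 entries that name no gene. Per the labels, TRIzol was used for extraction and the SENSE Total RNA-Seq kit for single-end libraries. TopHat, HTSeq, DESeq2 and build GRCm38.p5 are named, per the submitters' processing notes. Versions, strand setting and annotation release are not given in the sources used here.

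With GENCODE M21 (52403 IDs found, 687 not), each ID was assigned to the opposite-strand gene holding at least 90% of the exon bases that face it, which gave 8188 IDs, 7385 genes and 88.0% of counts. In 24 IDs several opposite genes tied. The assignment rests on positions, not reads. The counts were summed per gene and fitted with edgeR 4.0.16 in R 4.3.3 (filterByExpr, TMM, robust quasi-likelihood, no covariates, Benjamini-Hochberg, threshold 0.05), and the procedure was tested on simulated data. CPM are on TMM library sizes, and log2 CPM used a prior count of 2. Reads carry no molecular identifiers, so depth limits cover counting error only. The members and lists were chosen with earlier results of these data known. Members named are the 20 of highest mean CPM, the 10 of smallest p, the highest of each role group and those beside the count threshold; others fill the role groups and were named after their values were seen. Alternatives were other scalings, filters, assignments and count thresholds, DESeq2 1.42.0, limma-voom (limma 3.58.1), age, the striatal level or the animal number in the model, and left-out libraries. The fits and counts include a few genes that go unnamed here. Animal numbers are not stated to pair the samples.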

Additional observations from a re-analysis of the deposited data

Results flagged for a closer look

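In 6 of 72 groups of 5 values (36 genes in each genotype) 1 animal lay far from the other 4, by a gap of more than 0.71 of the group's range. For normally distributed values about 1 group in 20 passes this by chance, which is 3.6 of 72. Whether CPM are so distributed was not tested, so 3.6 is only a rough guide. A group with 1 value above 0, as in wild-type Slc9a4, passes in any case. Slc6a9 was 5770 CPM in dTPR1 homozygous animal 2, and 2517 to 3198 CPM in the other 4. The same animal had 157.2 CPM of Slc7a10, with 58.2 to 65.8 CPM in the others of its group. Slc35e2 was 156.4 CPM in dTPR1 homozygous animal 1, and 41.5 to 70.8 CPM in the others. In the wild-type group, Slc20a1 was 705.3 CPM in animal 4 and 377 to 466 CPM in the others, Slc6a20a was 190.0 CPM in animal 2 and 17.1 to 66.2 CPM in the others, and Slc9a4 was 17.09 CPM in animal 5 and 0 in the others.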

How the results depend on the processing

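Under every alternative 0 members were called. Of all genes, 0 were called except without a filter on low counts, where 2 of 5176 tested were called, neither of them a member; the cause was not tested. Genes at an unadjusted p under 0.05 numbered 57, and 15 to 542 over the alternatives: 542 without the filter and 138 with DESeq2, both of which tested 5176 genes, and 15 where at least 50% of an ID's exon bases had to face its gene (379 tested). The members' median log2 fold change ran from -0.139 to 0.0142 over the alternatives, and with a library left out from -0.139 (without wild-type animal 3) to 0.001 (without wild-type animal 1). With animal number as a replicate block, 0 genes and 0 members were called, the median was -0.0481 and 50 genes had an unadjusted p under 0.05. The deviations of animals sharing a number correlated at -0.108 to 0.0975, and 3 of 10 libraries correlated best with their own number, so the numbers are not shown to pair the samples. Of the 23 named members tested, 12 kept their sign in every alternative that fitted them, and 11 did not. Among the 12, Slc25a46 was fitted in 18 alternatives, against 23 for Slc25a23. It was not fitted without wild-type animal 5, its highest animal, so its sign there is not known. Leaving out 1 library shifted 19 of the 23 by over 1.5 times. Shifts are ratios to the main estimate, so small moves pass in members near 0. Slc29a1 (-0.0068), Slc30a4 (-0.0084) and Slc6a20a (0.0044) passed with each of the 10 libraries left out. The sign of Slc6a20a turned at -0.0018 with DESeq2. At an unadjusted p under 0.05 in some alternative were 4 named members, among them Slc20a1, Slc25a23 and Slc25a35, with a smallest adjusted p of 0.453. At library totals of 667751 to 927242, the size of difference detectable in genes of a few counts was not measured.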

Other observations

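Some IDs with solute carrier names held many counts, though the genes of those names are not members. The ID of Slc26a10 had a mean count of 6256 and faces B4galnt1, that of Slc3a1 had 2349 and faces Prepl, and that of Slc24a5 had 582.5 and faces Myef2. These carriers are not members because the IDs facing them had mean counts of 4.5, 2.9 and 1.0, under the threshold of 5. The IDs of Slc39a5 (mean count 272.9) and Slc30a2 (192.9) faced exons of no gene, and the source of their counts was not tested. Of the 379 Slc IDs, 179 had 0 counts in every library.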
